A study of Homo sapiens with 3 samples.

Results

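Epiblast-like cells were picked out of human embryonic stem cell colonies that had been exposed to BMP4, as the cells that held RNA of SOX2 and lacked RNA of TBXT. A barcode of the BMP4 library was kept with at least about 3700 UMIs (unique molecular identifiers, 1 per captured RNA molecule), at least 2000 detected genes and at most 15% of UMIs from mitochondrially encoded genes. A kept cell was selected with at least 1 UMI of SOX2, 0 of TBXT, at most 1 of MIXL1 and 0 of TFAP2A. The selected cells numbered 567 of 9401 kept cells, or 6.03% (exact Clopper-Pearson 95% interval 5.56 to 6.53), and the other 8834 kept BMP4 cells were the comparison. The 4 genes of the rule chose the cells, so their values below are descriptions only.

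The cells were HES3 MIXL1:GFP, an established human embryonic stem cell line with a fluorescent reporter at MIXL1, grown as micropatterned colonies with 10 µM of Y-27632, a ROCK inhibitor that aids survival after dissociation. After 24 h, colonies received for 48 h either 50 ng/mL of BMP4, 6 µM of CHIR99021 (a GSK3 inhibitor that activates WNT signalling), or 3 µM of CHIR99021 plus Activin A at 100 ng/mL, which signals through the receptors that NODAL uses. These arms are called BMP4, CHIR and CHIR+Activin. Each was 1 library from about 10 pooled colonies, so no difference has a replicate check, no test was made, and every interval below covers counting error only. Position within the colony was not recorded for any cell.

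The epiblast is the pluripotent layer of the early embryo from which the primitive streak, mesoderm, endoderm, amnion and germ cells arise. Its cells hold a transcription factor network around POU5F1, SOX2 and NANOG, in which SOX2 and POU5F1 pair on DNA. BMP4 at the edge of a stem cell colony is known to induce WNT and then NODAL ligands, which switch on TBXT and MIXL1 in the primitive streak, while TFAP2A marks amnion and surface ectoderm. TBXT-negative, SOX2-positive cells are therefore the class that epiblast cells before streak entry would fall in.

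Upstream sequence is shown for genes that the results turn on and whose promoter window holds a short motif of a factor named above. RefSeq promoter windows (build GRCh38.p14) were searched on both strands, over the 250 bases before the first transcribed base, for the octamer ATGCAAAT of POU factors and the core CATTGT of SOX factors. Of 35116 windows, 1.63% held the octamer and 9.29% the SOX core. Of the 6 fixed markers (SOX2, USP44, PRDM14, SFRP2, GRIK2 and RMST), 4 had windows in the table, and those of SOX2 and GRIK2 held neither motif. The SFRP2 octamer started 35 bases before the first base, the NANOG SOX core 112 bases before it and the RMST SOX core 123 bases before it. The SFRP2 and NANOG windows overlap exons of the same genes in the GENCODE 29 annotation, so only 30 bases are printed for these. RMST had 2 windows, and the one with the motif is printed. The bases that follow it were not found in a GENCODE 29 transcript of RMST. Capitals mark the motif, which lies on the opposite strand in NANOG and SFRP2, and a match is a description of the letters and not evidence of binding.
NANOG, chr12:7789278-7789307, plus strand: tacttttgcattACAATGgccttggtgaga
SFRP2, chr4:153789100-153789129, minus strand: ccaccctccagATTTGCATaaaaaaggcca
RMST, chr12:97464441-97464690, plus strand: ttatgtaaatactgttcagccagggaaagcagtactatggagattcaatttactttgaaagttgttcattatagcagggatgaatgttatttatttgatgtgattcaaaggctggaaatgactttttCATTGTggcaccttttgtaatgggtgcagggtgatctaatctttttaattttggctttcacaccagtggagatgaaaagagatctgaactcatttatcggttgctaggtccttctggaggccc

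The window of SP5 is shown because SP5, a transcription factor gene known as a direct target of WNT signalling, was one of the genes that differed most between selected cells of the 3 arms. It was searched for the core CTTTGA of TCF/LEF factors, which 11.2% of the 35116 windows held and 0.0655% held at least 3 times. The 3 SP5 matches, in capitals, started 147, 109 and 83 bases before the first base. The bases that follow this window were not found in a GENCODE 29 transcript of SP5.
SP5, chr2:170715087-170715336, plus strand: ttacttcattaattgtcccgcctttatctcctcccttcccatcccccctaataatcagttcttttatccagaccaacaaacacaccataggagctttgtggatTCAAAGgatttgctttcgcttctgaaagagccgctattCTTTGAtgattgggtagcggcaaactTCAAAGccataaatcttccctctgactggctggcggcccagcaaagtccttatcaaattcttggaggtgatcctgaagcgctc

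After the cell filters, 9401 BMP4, 7076 CHIR and 6866 CHIR+Activin cells remained, with median depths of 12623, 22930 and 17215 UMIs. Pairs of libraries shared 8 to 12 cell barcodes. The BMP4 selected cells held 8313556 UMIs in all, with a median of 13044 per cell (lowest 4144, highest 44948), 4667 detected genes and 3.56% mitochondrial UMIs. The other BMP4 cells had medians of 12588.5 UMIs, 4497.5 genes and 4.11% mitochondrial UMIs. Depth therefore lay close together in the groups that are compared most. Doublet scores placed 4 selected cells (0.705%) among the 6% of BMP4 cells with the highest scores.

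Every criterion of the rule narrowed the choice. SOX2 was detected in 1572 kept BMP4 cells, of which 696 lacked TBXT, 600 of those had at most 1 UMI of MIXL1, and 567 of those lacked TFAP2A. At the edge of the rule, 220 selected cells held exactly 1 UMI of SOX2 and 89 held exactly 1 of MIXL1. Just outside it lay 681 cells that met every other criterion with no SOX2 UMI, at a median depth of 9375 UMIs. The median selected cell held 2 UMIs of SOX2, and the highest held 14.

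Levels are given as CPM, a gene's UMIs summed over a group of cells per 1000000 UMIs of that group. SOX2 itself stood at 176 CPM in the selected cells, 133 in cells that met the same rule in CHIR and 156 in those of CHIR+Activin. TBXT and TFAP2A were at 0 in all 3 by construction, and MIXL1 at 10.7, 14.2 and 15 CPM. The same rule took 17.8% of CHIR cells (1259) and 27.2% of CHIR+Activin cells (1868). Applied to cells thinned to the UMI minimum, it took 461 BMP4, 1190 CHIR and 1464 CHIR+Activin cells. Depth differed between the libraries, and its part in the shares was not tested.

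The 5 fixed markers that the rule did not use were all higher in the selected cells than in the other BMP4 cells. USP44, a deubiquitinase gene of pluripotent cells, was at 176 CPM against 33.9, a log2 ratio of 2.38 (exact 95% interval 2.29 to 2.46). In CHIR it was at 122 CPM in cells that met the rule and 92 in the others, and in CHIR+Activin at 141 and 84. The other BMP4 cells were thus the lowest of the 6 groups, and the BMP4 selected cells the highest.

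RMST, a long noncoding RNA gene whose product is known to bind SOX2, was at 234 CPM in the selected cells and 29 in the other BMP4 cells, a log2 ratio of 3.01 (2.93 to 3.09). Cells that met the rule had 175 CPM in CHIR and 147 in CHIR+Activin, and the other cells 70.9 and 55.7. GRIK2, which encodes a kainate-type glutamate receptor subunit, was at 82.2 CPM against 8.12 in BMP4, a log2 ratio of 3.34 (3.20 to 3.48). GRIK2 was lower in the cells that met the rule elsewhere, at 23.8 CPM in CHIR and 27.3 in CHIR+Activin.

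SFRP2, a secreted WNT modulator, was at 357 CPM against 158, a log2 ratio of 1.18 (1.13 to 1.24). PRDM14, a transcriptional repressor that guards pluripotency, was at 17.9 CPM against 4.2, a log2 ratio of 2.09 (1.82 to 2.36). For PRDM14 the BMP4 selected cells were again above the cells that met the rule in CHIR (9.58 CPM) and CHIR+Activin (13.7 CPM). All 5 markers had the order BMP4 selected cells, then cells that met the rule in the other arms, then other BMP4 cells.

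**Figure D1:**
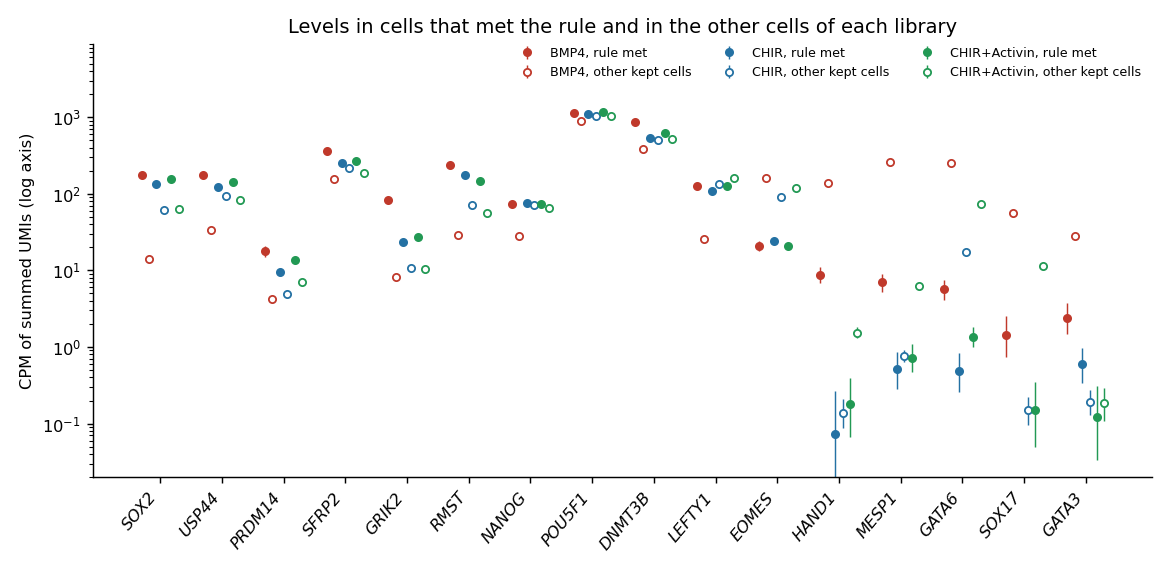
Level of 16 genes (CPM of summed UMIs, log axis) in cells that met the rule (filled) and in the other kept cells (open) of all 3 libraries, with exact 95% counting intervals and no point where a group had 0 UMIs. Filled red points (BMP4) lie highest for USP44 and GRIK2, at 176 and 82.2 CPM, and the open red points lie highest for MESP1 and GATA6, at 260 and 253 CPM.

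The spread between single cells was wide. USP44 ranged from 0 to 15 UMIs per selected cell with a median of 2, and 78 of the 567 cells had none. RMST ranged from 0 to 16 UMIs with a median of 3, and 74 cells had none. GRIK2 was absent from 275 cells and reached 15 UMIs in 1, so fewer selected cells held GRIK2 than held USP44 or RMST at this depth. PRDM14 was absent from 450 cells and never passed 3 UMIs.

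Cells were thinned at random to 5000 UMIs each before shares of cells were compared, which left out 4 selected cells and 130 of the others. USP44 was then detected in 59.5% (55.3 to 63.6) of selected cells and 13.7% (13.0 to 14.5) of the others. Without thinning the shares were 86.2% and 30.2%. RMST was detected in 62.2% (58.0 to 66.2) against 8.92% (8.32 to 9.53), and GRIK2 in 27.0% (23.4 to 30.9) against 3.04% (2.69 to 3.43). Unthinned, RMST was detected in 86.9% against 19.1% and GRIK2 in 51.5% against 7.89%. Shares of cells and CPM gave the same direction for each of these genes.

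RNA free in the droplets can place UMIs in cells that do not express a gene. Droplets with fewer than 100 UMIs held SOX2 at 44.6 CPM. At 5000 UMIs, SOX2 was detected in 3.06% (1.79 to 4.85) of amnion-like cells, which should lack it, 2.95% (2.18 to 3.90) of HAND1-positive mesoderm cells and 2.11% (0.968 to 3.96) of germ cell-like cells. These were cells with at least 2 UMIs of TFAP2A and 1 of GATA3, with at least 2 of HAND1 and none of TFAP2A or SOX17, and with at least 2 each of SOX17 and TFAP2C. Unthinned, these shares were 8.60%, 6.45% and 7.46%, at median depths of 18808.5, 12381 and 17868 UMIs. The selected cells, chosen for SOX2, kept a SOX2 UMI in 59.7% (55.5 to 63.8) after thinning. Some cells selected on a single SOX2 UMI could therefore hold it from free RNA, and the number that do was not tested.

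Most selected cells held several of the 5 markers at once. After thinning to 5000 UMIs, 0 of the 5 markers were detected in 1.42% of selected cells, 1 in 17.4%, 2 in 33.4%, 3 in 35.7%, 4 in 10.7% and 5 in 1.42%. Of the other BMP4 cells, 40.9% held none and 2.73% held 3. SOX2-positive cells with TBXT or MIXL1 were between these groups, with 0 markers in 18.6% and 3 in 11.3%. The cells that met the rule but for SOX2 held 0 in 32.9% and 3 in 10.5%.

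**Figure D2:**
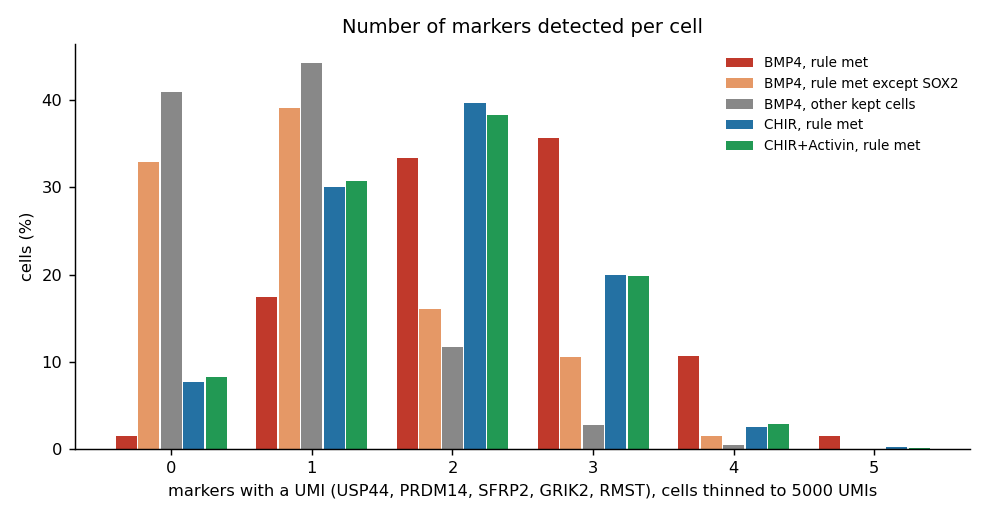
Share of cells (%) by the number of the 5 markers with a UMI, each cell thinned to 5000 UMIs, for cells that met the rule in 3 libraries, BMP4 cells that met it except for SOX2, and the other BMP4 cells. The red bars peak at 3 markers (35.7% of cells), the grey bars at 1 marker (44.2%), and the CHIR bars at 2 markers (39.7%).

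USP44 was level across selected cells with few and many SOX2 UMIs, whereas GRIK2 and RMST were higher in cells with 5 or more. USP44 was at 167 CPM in cells with 1 SOX2 UMI, 183 with 2, 177 with 3 to 4 and 183 with 5 or more. RMST was at 218, 219, 231 and 278 CPM in the same order, and GRIK2 at 70.4, 75.7, 87.1 and 101 CPM. The 681 cells that met the rule except for SOX2 were lower, at 62.8 CPM of USP44, 123 of RMST and 39.4 of GRIK2. EOMES, a streak transcription factor, went the other way, at 40.7 CPM without SOX2, 27.9 with 1 UMI and 9.19 with 5 or more. The median depth also differed along this order, from 9375 UMIs without SOX2 to 11598.5 with 1 and 19583 with 5 or more, and its part in these values was not tested.

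Across all genes, 10160 had at least 10 CPM in the selected cells or in the other BMP4 cells, leaving out the 4 genes of the rule. Of these, 476 (4.69%) were at least 2-fold higher in the selected cells and 433 (4.26%) at least 2-fold lower. A 4-fold difference was reached by 76 genes upward and 187 downward, and the median of all genes was near 0 (log2 ratio -0.0017). More genes were thus 4-fold lower than 4-fold higher. With the rule applied to cells thinned to the UMI minimum, 297 genes were at least 2-fold higher and 323 lower.

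Among genes with at least 25 CPM in the selected cells, the 12 with the largest ratio included noncoding and neuronal genes. JAKMIP2-AS1, an antisense transcript, was at 36.4 CPM against 3.31 (log2 3.46), the unnamed gene ENSG00000289533 at 299 against 30.5 (3.30) and SLC24A2, a sodium/calcium-potassium exchanger gene, at 30.4 against 3.12 (3.29). NAV3, a neuron navigator gene, had a log2 ratio of 2.81, the adhesion gene CNTN1 2.78, MPPED2 2.64, LNCPRESS1 2.62, FOXD3-AS1 2.59, TMEM132B 2.57 and SFRP1 2.45. GRIK2 and RMST complete the 12. JAKMIP2-AS1 and FOXD3-AS1 lie antisense to coding genes, and the sources used here do not say whether the counting used strand.

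The 12 largest ratios downward included transcription factor, secreted signalling and receptor genes. RSPO3, a secreted amplifier of WNT signalling, was at 0.241 CPM (2 UMIs) against 26.9, a log2 ratio of -6.81 (-9.85 to -4.95). LHX1, a homeobox gene of streak and mesendoderm, was at 2.53 against 134 CPM (log2 -5.73), FGF17 at 3.73 against 178 (-5.58), and GATA6, a mesoderm and endoderm factor, at 5.65 against 253 (-5.48). DKK1, a secreted WNT antagonist, had a log2 ratio of -5.42, LGR5, a receptor of R-spondins, -5.32, SOX17 -5.29, MESP1 -5.22, MESP2 -5.20, the semaphorin receptor gene PLXNA2 -5.11, BMP2 -5.06 and TBX3 -4.92.

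**Figure D3:**
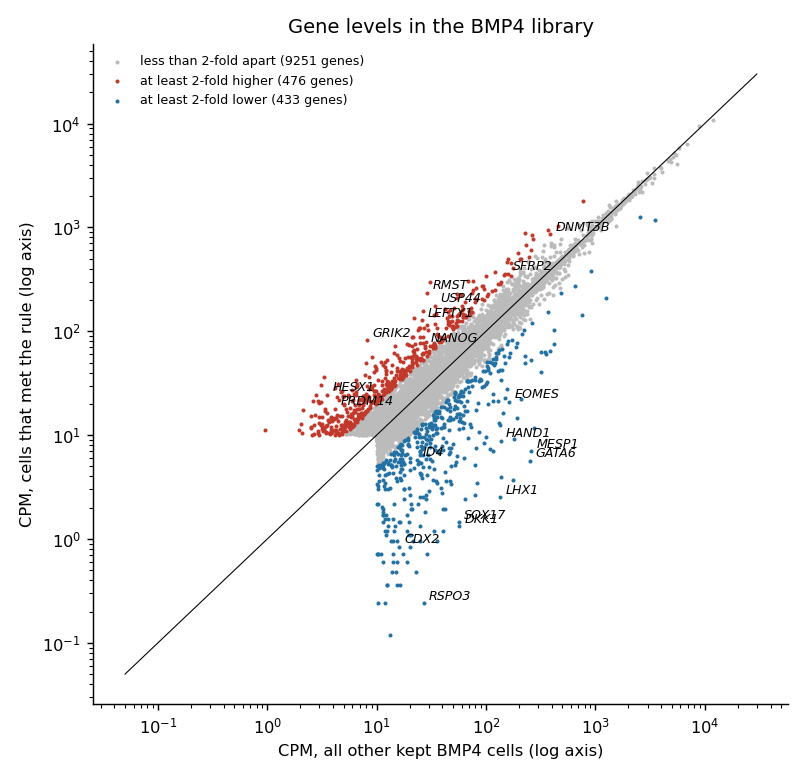
Level of each of 10160 genes in the selected BMP4 cells (vertical) and the other BMP4 cells (horizontal), in CPM on log axes, with the 4 genes of the rule left out. The 476 red genes are at least 2-fold higher and the 433 blue genes at least 2-fold lower, and the blue genes reach farther from the line of equal level.

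Genes of the pluripotent epiblast were mostly higher. Of 25 measured genes in that list beyond SOX2, 11 were at least 2-fold higher and 1 was lower, with a median log2 ratio of 0.79. NANOG was at 72.8 CPM against 28 (log2 1.38, 1.25 to 1.5) and TERF1, a telomere-binding factor gene, at 893 against 228 (1.97). JARID2, a subunit of the Polycomb complex PRC2, was at 845 against 265 CPM (1.67), and the DNA methyltransferase gene DNMT3B at 855 against 387 (1.14, 1.11 to 1.18). POU5F1 was less than 2-fold apart, at 1126 against 882 CPM (0.35, 0.32 to 0.38), as were LIN28A (0.64), SALL4 (0.09) and ZFP42 (0.03). OTX2, a transcription factor of anterior epiblast, was the 1 lower gene, at 6.62 against 19.1 CPM (-1.53).

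The noncoding RNAs of pluripotent cells were higher still as a list, with 9 of 11 measured genes at least 2-fold higher, 0 lower and a median of 1.64. ESRG was at 500 CPM against 158, LINC00678 at 262 against 81.3 and SOX2-OT, a gene within which SOX2 lies, at 11.9 against 4.80. LINC00458 was on the other side, at 69 against 131 CPM (log2 -0.92). Because SOX2 lies inside SOX2-OT, the 2 counts could share reads. The rule selected on SOX2, so the value of SOX2-OT may depend on the rule.

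NODAL signalling genes were mixed. Of 14 measured genes, 1 was at least 2-fold higher and 2 lower, with a median of -0.27. LEFTY1, a secreted inhibitor of NODAL, was at 127 CPM against 25.9 (log2 2.30, 2.20 to 2.40), and its near-identical neighbour LEFTY2 at 45.6 against 24 (0.93). Reads of this pair could be split between them by the counting. The ligand NODAL was at 62.8 against 88.5 CPM (-0.49), the coreceptor TDGF1 at 163 against 144 (0.18) and the transcription factor FOXH1 at 54.9 against 86.1 (-0.65). CER1, an inhibitor made by endoderm, was at 11.7 against 276 CPM (-4.56). LEFTY1 was thus higher in the selected cells while the ligand NODAL was slightly lower.

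The FGF list of ligands, receptors and feedback genes had a median of 0.06, with 2 of 18 higher and 2 lower. The ligand FGF2 was at 47.4 CPM against 41.4, whereas the streak ligands FGF4 (4.45 against 42.5) and FGF17 were lower. The receptor FGFR2 was at 53.8 CPM against 22.8 (log2 1.24), and DUSP6, a phosphatase induced by ERK signalling, at 51.6 against 16.2 (1.67). The feedback inhibitor SPRY4 (-0.19) and the ERK-responsive factor ETV4 (-0.01) were close to equal.

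Targets of WNT signalling were lower, with 7 of 10 measured genes at least 2-fold lower, 0 higher and a median of -2.05. LEF1, a transcription factor of the pathway, was at 3.73 CPM against 32.7 (log2 -3.13), the feedback gene NKD1 at 7.46 against 47.5 (-2.67) and SP5 at 26 against 69.9 (-1.43). AXIN2, the most widely used feedback target, was close to equal at 17.6 against 21.7 CPM (-0.30), and ZNRF3 at 69.3 against 75.6 (-0.13). The list as a whole was lower while AXIN2, RNF43 (-0.70) and ZNRF3 were less than 2-fold apart.

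Receptors for WNT ligands were mixed, with 2 of 8 higher, 1 lower and a median of 0.26. FZD5 was at 72.4 CPM against 21.1 (log2 1.78) and the coreceptor ROR1 at 205 against 80.2 (1.35), whereas ROR2 was at 40.9 against 321 (-2.97). The selected cells thus had more ROR1 than the other cells and less ROR2. Of the secreted modulators, SFRP1 and SFRP2 were higher and DKK1 and RSPO3 lower, and the ligand WNT3 was at 29 against 92.5 CPM (-1.67).

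Target genes of BMP signalling were lower in the selected cells although every colony of this library had received BMP4. Of 8 measured genes, 7 were at least 2-fold lower, with a median of -1.65. ID1, a direct target that encodes an inhibitor of basic helix-loop-helix factors, was at 377 CPM against 904 (log2 -1.26, -1.32 to -1.21), ID3 at 275 against 652 (-1.24), BAMBI at 20.4 against 83.8 (-2.04) and MSX2 at 5.53 against 53.4 (-3.27). MSX1, which at 9.93 CPM in the other cells was under the level minimum and is not among the 8, had 0 UMIs in the selected cells. It was at least 27.5-fold lower, with the selected cells as a group set at 3 counts. ID1 in cells that met the rule in CHIR and CHIR+Activin was at 142 and 202 CPM, so the BMP4 selected cells lay between those of the arms without BMP4 and the other BMP4 cells. The SMAD inhibitor SMAD7 (30 against 27.8 CPM) was near equal.

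Receptors of BMP were similar in both groups, with BMPR1A at 240 CPM against 223 and BMPR2 at 135 against 184. Transcripts of BMP4 itself were at 3.37 CPM against 48.2 and those of BMP2 at 1.20 against 40.1. Among 8 measured ligands and regulators, 0 were at least 2-fold higher and 3 lower, with a median of -0.61.

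Genes of the cell types that arise from the streak were low. Of 10 measured primitive streak genes, 8 were at least 2-fold lower (median -3.10), of 12 nascent mesoderm genes 11 were (-4.14), of 9 lateral mesoderm genes all 9 were (-4.45), of 5 caudal epiblast genes all 5 were (-4.03) and of 4 definitive endoderm genes 3 were (-3.99). These lists hold genes that vary with TBXT and MIXL1, which the rule set low. EOMES was at 21.1 CPM against 163, MESP1 at 6.98 against 260, HAND1 at 8.78 against 136 and CDX2 at 0.842 against 16.2.

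Summed over whole lists, the 17 lateral mesoderm genes stood at 47 CPM in the selected cells, 859 in the other BMP4 cells and 1802 in HAND1-positive mesoderm, with 2 of the 17 at 0 UMIs in the selected cells. The 15 nascent mesoderm genes stood at 150 CPM against 1097. The 11 amnion genes beyond TFAP2A stood at 18.5 CPM against 65.0 in the others and 337 in amnion-like cells, with GATA3 at 2.41 CPM and ISL1 at 1.44. The 10 germ cell genes stood at 93.6 CPM against 200 in the others and 948 in germ cell-like cells, with SOX17 at 1.44 and NANOS3 at 0.481. Droplets with under 100 UMIs held HAND1 at 102 CPM and MESP1 at 169, and the part of free RNA in the low values of the selected cells was not tested.

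HAND1 was unevenly spread within the selected cells. Its 73 UMIs came from 33 cells, and 5 cells held 40 of them, the highest with 20. The 97 UMIs of TFAP2C were spread over 83 cells with at most 4 in 1. HAND1 thus came mainly from a few cells, whereas TFAP2C was spread over many.

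Neural genes were hardly present. The 14 neural ectoderm genes summed to 118 CPM against 68.7, and PAX6, SOX1, SIX3, SIX6 and LHX5 had 0 UMIs in the selected cells. Of 3 measured genes, HESX1, a homeobox gene of the anterior neural plate and the pituitary, was at 24.4 CPM against 3.55 (log2 2.78, 2.54 to 3.03). NES was at 61.1 against 48.9 CPM. In 20 measured genes of neuronal adhesion and guidance, 7 were at least 2-fold higher and 5 lower, with a median of 0.52. ROBO2 was at 251 CPM against 76.8 (1.71) and SEMA3A at 124 against 45.2 (1.46), while EPHA4 (-2.39) and NTN1 (-2.62) were lower.

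Epithelial adhesion genes were near equal, with 2 of 15 higher, 1 lower and a median of 0.14. CDH1, the epithelial cadherin, was at 150 CPM against 146 and EPCAM at 239 against 237. Tight junction genes differed among themselves, with CLDN3 at 14.6 against 3.79 CPM (log2 1.94), OCLN at 38.6 against 17.8 (1.11) and CLDN10 at 59.9 against 355 (-2.57). CLDN10 was at 1846 CPM in amnion-like cells.

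Mesenchymal genes were lower, with 7 of 8 measured genes 2-fold or more below the other cells (median -1.86). CDH2, the mesenchymal cadherin, was at 52.9 CPM against 260 (log2 -2.30), the repressor SNAI1 at 6.86 against 46.8 (-2.77) and ZEB2 at 1.08 against 20.6 (-4.25). VIM was the 1 gene less than 2-fold apart, at 94.4 against 124 CPM. Matrix genes had 1 of 16 higher and 6 lower, led upward by VCAN (500 against 203 CPM, log2 1.30) and downward by COL5A1 (6.01 against 63.1, -3.39) and HAPLN1 (8.42 against 95.5, -3.50).

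Metabolic lists lay slightly above 0. Glycolysis had a median of 0.39 over 20 genes with 2 at least 2-fold higher, namely ALDOC (22.5 against 7.99 CPM) and ENO2 (27.7 against 12.9). Cholesterol synthesis had a median of 0.41 over 16 genes with INSIG1 alone 2-fold higher, at 47 against 23.2 CPM. Of 11 genes of the integrated stress response 3 were higher, among them DDIT4 at 107 against 25 CPM (log2 2.10) and CHAC1 at 11.4 against 4.65 (1.30). PMAIP1, a proapoptotic target of p53, was at 347 against 146 CPM (1.25).

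Cell cycle lists held no gene 2-fold apart, with medians of -0.10 over 17 S phase genes and -0.15 over 18 genes of G2 and mitosis. MKI67 was at 79.1 CPM against 88.6. Mitochondrially encoded genes had a median of -0.11 over 13 genes, with 0 of them 2-fold apart.

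**Figure D4:**
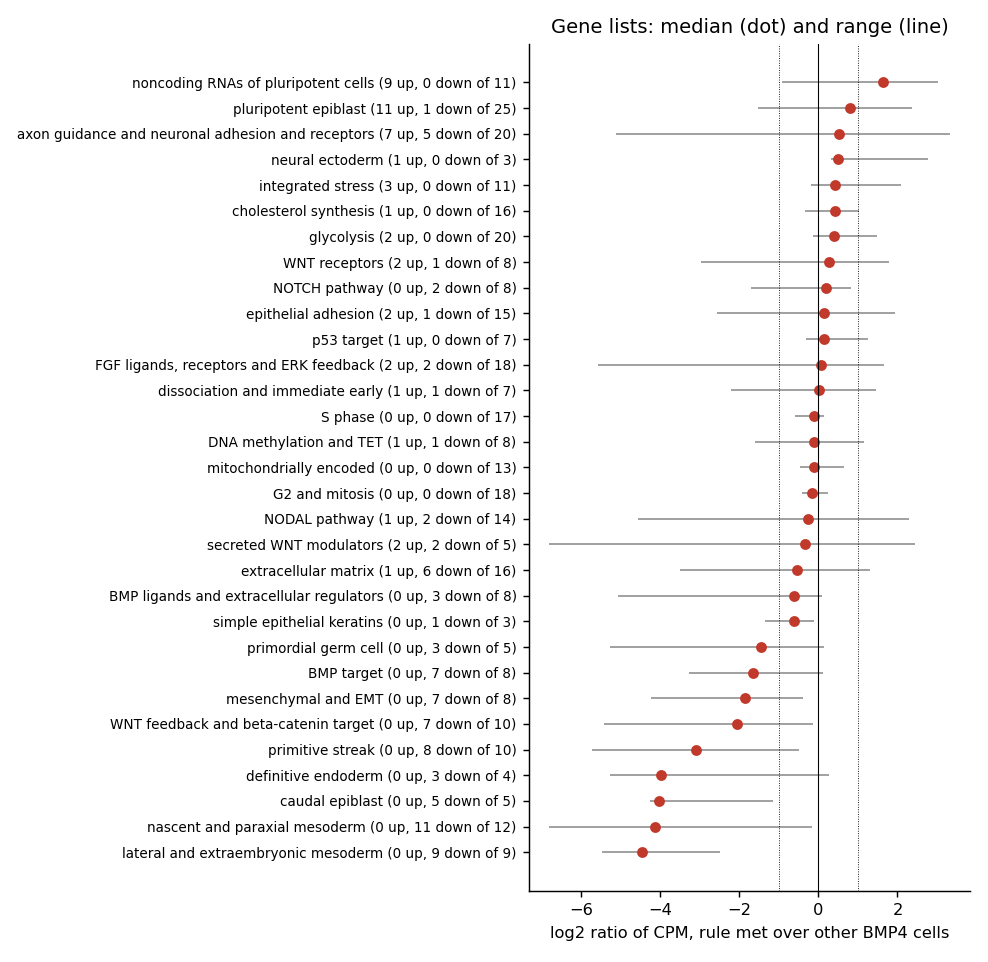
Median (dot) and range (line) of the log2 ratio of CPM, selected cells over the other BMP4 cells, in each gene list with at least 3 measured genes, and in brackets how many genes were at least 2-fold higher or lower. Dotted lines mark 2-fold; noncoding RNAs of pluripotent cells lie highest (median 1.64) and lateral mesoderm genes lowest (-4.45).

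The SOX2-positive cells of the BMP4 library that held TBXT or at least 2 UMIs of MIXL1, numbering 787, were nearer to the selected cells. Among 9997 genes, 146 (1.46%) were 2-fold or more higher in the selected cells and 213 (2.13%) lower. USP44 was at 82 CPM in these cells, RMST at 82.9, GRIK2 at 18.2 and NANOG at 50.2, each between the selected cells and the other BMP4 cells as a whole. Their median depth was 17186 UMIs. The epiblast list had 5 of 25 genes higher in the selected cells and 1 lower, and the streak list 8 of 9 lower. LEFTY1 was at 53.2 CPM and ID1 at 662.

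Germ cell-like cells, taken as cells with at least 2 UMIs each of SOX17 and TFAP2C, also express pluripotency genes and numbered 429. Against them 686 of 10293 genes (6.66%) were at least 2-fold higher in the selected cells and 621 (6.03%) lower. POU5F1 was at 1001 CPM in the germ cell-like cells and NANOG at 59.9, close to the 1126 and 72.8 of the selected cells. USP44 (10.5 CPM), RMST (10.6), DNMT3B (214) and TERF1 (136) were each lower. POU5F1 and NANOG hence did not set the selected cells apart from germ cell-like cells as USP44 and RMST did.

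Compared with the 681 cells that lacked only SOX2, 96 of 10174 genes (0.944%) were at least 2-fold higher in the selected cells and 348 (3.42%) lower. HAND1 (144 CPM), SOX17 (97) and MESP1 (114) were among the genes at higher levels in the cells without SOX2. That group therefore mixed cell types, and a part of it resembled the selected cells, as shown next.

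Clustering of the whole BMP4 library on 2000 variable genes gave 13 clusters, of which cluster 8, with 844 cells, held 475 (83.8%) of the selected cells. The rest of that cluster included 135 cells that met the rule except for SOX2 and 158 SOX2-positive cells with TBXT or MIXL1. Its 10 leading genes included GRIK2 and RMST beside SOX2, which the rule used. It is called epiblast-like from the markers beyond SOX2, and its 369 cells outside the rule had USP44 at 141 CPM, RMST at 173 and GRIK2 at 45. These 369 cells also held streak genes. TBXT was at 56.8 CPM and MIXL1 at 74, which the rule itself sorts by. EOMES was at 56.6 CPM, against 15.1 in the selected cells of the cluster. The name therefore does not describe every cell of the cluster. Clusters 5 and 6 held 36 and 35 selected cells, and no other cluster held more than 8.

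The 475 selected cells of the epiblast-like cluster had USP44 at 190 CPM, GRIK2 at 89.9, EOMES at 15.1 and HAND1 at 4.2. The 92 selected cells outside it had USP44 at 92.3 CPM, GRIK2 at 35, EOMES at 57.2 and HAND1 at 36.7. HAND1 was detected in 5.47% of the 475 cells and 7.61% of the 92, so its summed level outside the cluster came from few cells. The 135 cells of the cluster without a SOX2 UMI had USP44 at 169 CPM, GRIK2 at 56.2, RMST at 212 and HAND1 at 3.23. By these genes the cells missed by the rule were closer to the selected cells in the cluster than the selected cells outside it were. The clusters were formed from the expression of these same cells, and GRIK2 and RMST were among the leading genes of this cluster. Likeness within it was thus partly set by the clustering, and this closeness is a description only.

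The 567 selected cells on their own split into 5 clusters of 102, 192, 104, 82 and 87 cells, and into 9 at a finer resolution. Genes said to lead a cluster had its largest ratios and helped to form it. The other genes given were from a fixed set that may also have shaped the clusters, and no test applies to any of them. The first was led by HAND1 (30.9 CPM against 3.70 in the other selected cells), HPGD, DMD and WLS. Only 33 of all selected cells held HAND1, and 5 cells held 40 of its 73 UMIs, so its level there rests on few cells. The second was led by THSD7B, NAV3, LINGO2, HS6ST3 and KCNQ5 and had GRIK2 at 119 against 56.1 CPM and RMST at 304 against 185. The third was led by PCDH10 and had EOMES at 53 against 15.4 CPM, FGF4 at 12 against 3.11 and LEFTY1 at 64.3 against 138. The fourth was led by histone genes, with H1-3 at 277 against 119 CPM. The fifth was led by TBC1D22A-DT (35.3 against 16.5 CPM), MED8 and NOC4L. POU5F1 (1324 against 1098 CPM) and DDIT4 (166 against 98.4) were also higher in the fifth but not among its 10 leading genes.

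Of these clusters, the third held 27 of its 104 cells in cluster 6 of the whole library, and the last 2 lay almost entirely in the epiblast-like cluster, with 81 of 82 and 82 of 87 cells. USP44, SFRP2 and POU5F1 were present in all 5. GRIK2 ranged from 37 CPM in the third to 119 in the second, and RMST from 152 in the fifth to 304 in the second. Some epiblast markers thus varied among the selected cells, as did EOMES, FGF4, HAND1 and histone genes.

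Cells meeting the same rule in the other arms were compared with the BMP4 selected cells, which both comparisons share. Of 10010 genes, 82 (0.819%) were at least 2-fold higher in the 1259 CHIR cells and 45 (0.45%) lower. Of 9859 genes, 47 (0.477%) were at least 2-fold higher in the 1868 CHIR+Activin cells and 28 (0.284%) lower. With the rule applied to cells thinned to that minimum of UMIs the split turned, to 52 higher and 66 lower in CHIR and 40 higher and 58 lower in CHIR+Activin. The cells outside the rule differed more, with 328 (3.24%) higher and 331 (3.27%) lower in CHIR than in BMP4, and 192 (1.93%) higher and 296 (2.97%) lower in CHIR+Activin. Median depth was 13044 UMIs in BMP4, 19789 in CHIR and 16073 in CHIR+Activin cells that met the rule, and its part in these counts was not tested.

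The genes with the largest ratios over BMP4 in these arms included a signalling ligand and transcription factor genes. FGF8, a streak ligand, was at 6.13 CPM in BMP4, 44.4 in CHIR and 49 in CHIR+Activin, log2 ratios of 2.86 and 3.00 over BMP4. SP5, whose promoter is printed above, was at 26, 104 and 84.5 CPM (2.0 and 1.7). NKX1-2, a caudal homeobox gene, was at 10.6, 33.7 and 30.3 CPM (1.67 and 1.52). In each case the 2 CHIR99021 arms lay together and BMP4 lay below.

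The streak list had 3 of 5 measured genes at least 2-fold higher in CHIR and 4 of 6 in CHIR+Activin, with medians of 1.13 and 1.26. WNT targets had 3 of 6 and 1 of 6, with medians of 0.81 and 0.52. The NODAL pathway had 1 of 14 in CHIR and 3 of 14 in CHIR+Activin, with medians of 0.22 and 0.36. NODAL itself was at 62.8 CPM in BMP4, 137 in CHIR and 134 in CHIR+Activin. LEFTY2 was at 45.6, 57.6 and 100 CPM, so only with Activin was it at least 2-fold higher than in BMP4. GAD1, a GABA-synthesising enzyme gene, was at 8.3, 26.9 and 21 CPM, and CHAC1, a stress response gene, at 11.4, 36.5 and 27.3. GLRX5, a mitochondrial glutaredoxin gene, was at 53.6, 139 and 138 CPM and LINC01356 at 75.4, 193 and 202.

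The genes higher in BMP4 were led by ABCA1, a lipid exporter gene, at 44.9 CPM against 5.03 in CHIR and 5.83 in CHIR+Activin (log2 -3.16 and -2.94). NTS, the neurotensin gene, was at 210 CPM against 39 and 53.9. It was at 1243 CPM in the other BMP4 cells. IQSEC2 was at 29.5 CPM against 6.47 and 12.1, NAV3 at 31.0 against 9.32 and 6.23, and DMD, the dystrophin gene, at 75.7 against 25.4 and 22.9. DMD too was higher in the other BMP4 cells, at 419 CPM, and ABCA1, at 25 CPM, was not. FOXD3-AS1 was at 134 CPM against 33.7 and 60.9, and HESX1 at 24.4 against 6.44 and 8.38.

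The epiblast list had 0 of 24 measured genes at least 2-fold apart in either comparison, with medians of -0.19 and -0.18. Over all genes, 0.819% were higher and 0.45% lower in CHIR, and 0.477% and 0.284% in CHIR+Activin. A count of 0 of 24 is close to those shares and does not set the list apart. NANOG levels in cells that met the rule were 72.8 CPM in BMP4, 76.2 in CHIR and 73.2 in CHIR+Activin, and those of POU5F1 1126, 1097 and 1164. Of the BMP targets, 1 of 5 measured genes was at least 2-fold lower in CHIR, namely ID1, and 0 of 5 in CHIR+Activin.

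**Figure D5:**
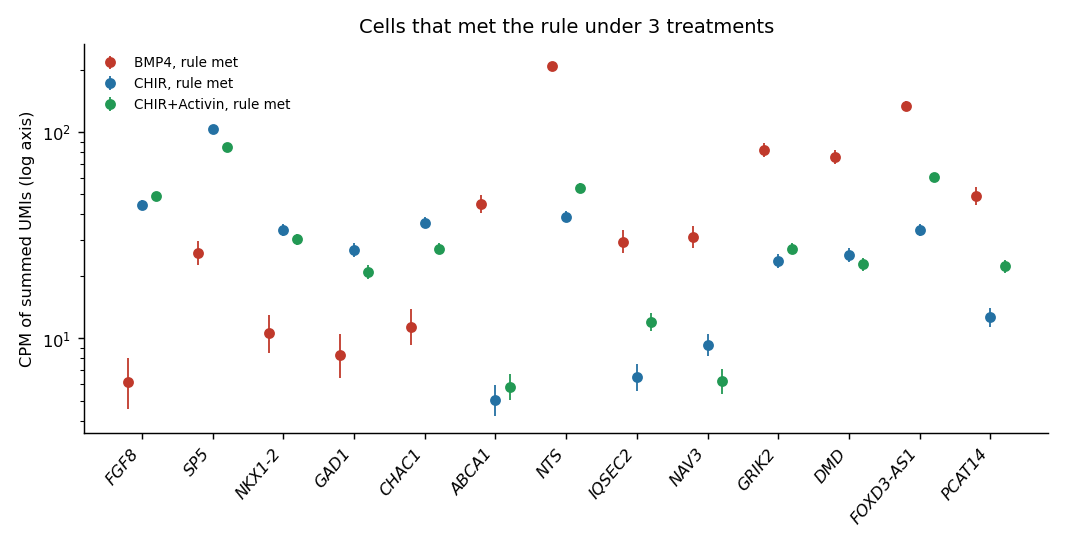
Level (CPM of summed UMIs, log axis) of 13 genes in cells that met the rule in each library, with exact 95% counting intervals. FGF8, SP5, NKX1-2, GAD1 and CHAC1 lie lower in BMP4 and the 8 genes from ABCA1 to PCAT14 higher, with FGF8 at 6.13 CPM in BMP4 and 44.4 in CHIR.

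Within each other library, cells that met the rule were set against the rest of that library, a contrast that shares no cells with BMP4. The contrast was smaller there, with 15 genes (0.151%) at least 2-fold higher and 49 (0.492%) lower in CHIR, and 38 (0.387%) higher and 127 (1.29%) lower in CHIR+Activin. Of the 476 genes higher in BMP4 selected cells, 425 were measured in CHIR and 405 of them (95.3%) were above 0 there, where 51.3% of all genes were. In CHIR+Activin 418 of 429 (97.4%) were, against 47.4% of all genes. Of the lower genes, 202 of 254 (79.5%) were below 0 in CHIR and 256 of 279 (91.8%) in CHIR+Activin. The shares of all genes above 0 were the 51.3% and 47.4% just given. All 3 contrasts were defined by the same 4 genes. The calls common to BMP4 and CHIR were 10 higher genes, which are 2.10% of the BMP4 and 66.7% of the CHIR higher calls. Another 43 were lower in both, which are 9.93% and 87.8% of the lower calls. BMP4 and CHIR+Activin shared 31 higher genes, which are 6.51% of the BMP4 and 81.6% of the CHIR+Activin higher calls. They shared 101 lower genes, which are 23.3% and 79.5% of the lower calls.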

How the data were processed

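RNA was measured in 3 libraries (BMP4, CHIR, CHIR+Activin) by 10x Genomics 3' v3.1 single-cell RNA sequencing. The deposited matrices hold unnormalised UMI counts. Per the file headers they come from Cell Ranger 8.0.1, and the submitters' processing notes also name Seurat. The sources used here do not give the genome build, annotation or strand setting of the counting, and genes carry the symbols and IDs of the deposited feature lists. The BMP4 matrix held all 1935344 droplets and the others called cells, which is why the UMI minimum was applied to all.

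UMIs were summed per group of cells and scaled to CPM. Log2 ratios carry exact conditional binomial 95% intervals, and shares carry exact Clopper-Pearson 95% intervals. Genes with at least 10 CPM in either group were counted as apart at 2-fold, and a group at 0 was set at 3 counts. With 1 library per treatment no p-value was computed. Genes were named by a rule: markers and rule genes, the 12 largest ratios in each direction (8 between arms) at 25 CPM or more, the 2 highest and 2 lowest of each of 34 lists, and further list members by role. Some genes that the rule names are not reported here. The members and lists were chosen with earlier results of these data known.

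Doublets were scored with scanpy 1.11.5 (Scrublet), whose own cut called only 2, 0 and 2 doublets and was therefore not used, and no cell was removed as a doublet in the results reported. Clustering used 2000 variable genes, 20 neighbours and the Leiden method. On simulated counts, 100% of genes 3-fold and 4-fold apart were found and 0 of 9555 unchanged genes were called for the selected against the other BMP4 cells. These counts were summed UMIs with counting noise alone, and the changed genes were all well above the level minimum. They held no variation between cells or libraries and no gene 2-fold apart. The simulation thus checks the calculation and not the calls.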

Additional observations from a re-analysis of the deposited data

Results flagged for a closer look

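For 4 named genes at least 2-fold apart in BMP4, the ratio of cells that met the rule to the rest of their library had the opposite sign in both other arms, with counting intervals there that did not reach 0. Genes less than 2-fold apart in BMP4 were not considered. The difference was not tested, since each arm was 1 library. LEFTY1, an inhibitor of NODAL, had a log2 ratio of 2.30 in BMP4, -0.30 in CHIR and -0.36 in CHIR+Activin. Its level in the cells that met the rule was 127, 108 and 127 CPM, and in the other cells 25.9, 133 and 162 CPM. The level was thus similar in the cells that met the rule, and the other cells differed.

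CLDN10, a claudin gene, had log2 ratios of -2.57, 0.24 and 0.31, with 355 CPM in the other BMP4 cells and 1846 CPM in BMP4 amnion-like cells. PCAT14, a long noncoding RNA gene, had -2.21, 1.01 and 0.94. PRKD1, a protein kinase gene, had -1.12, 0.40 and 0.22.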

How the results depend on the processing

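No paired analysis was possible because each treatment was 1 library. The share of selected cells was 6.03%, and 3.69% with at least 2 SOX2 UMIs, 5.08% without any MIXL1 UMI and 4.90% with the rule applied to cells thinned to the UMI minimum of the rule. That thinning gave 297 genes higher in place of 476, and 323 lower in place of 433, in selected against other BMP4 cells, 52 higher in CHIR in place of 82, and 58 lower in CHIR+Activin in place of 28. Raising the level minimum to 50 CPM left 174 higher and 149 lower genes in selected against other BMP4 cells, 16 and 12 for CHIR, and 15 and 6 for CHIR+Activin, since fewer genes were compared. With no minimum the counts were 10881 higher and 1858 lower, 1357 and 5656, and 937 and 6029, as genes at 0 in the smaller group were set at 3 counts, which also moved the median of all genes by 0.31, -0.11 and -0.12. Restricting the selected cells to the 475 in the epiblast-like cluster, an alternative chosen after seeing the data, gave 505 higher and 491 lower genes, of which 466 and 425 were also in the reported counts. Among named genes, 0 of 1476 values under alternatives turned the sign of a value called 2-fold apart, signs of smaller values were not counted, and 180 fell outside the reported counting interval. A level of 3 counts corresponds to 0.361 CPM in the selected cells, which limits what can be said of genes below it.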

Other observations

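Several genes of pluripotent or early neural cells lay under the level minimum of 10 CPM and so were outside the counts. Those given here were picked after their values were seen, and they do not stand for all genes under the minimum. UTF1, a chromatin factor of pluripotent cells, was at 4.93 CPM in the selected cells and 0.660 in the other BMP4 cells (log2 2.90, 2.33 to 3.46), from 41 UMIs. FOXD3, a repressor known from epiblast and neural crest, was at 3.61 CPM against 0.520 (2.80, 2.12 to 3.44), and DPPA5 at 6.98 against 1.28 (2.45, 1.99 to 2.89). POU3F1, a POU factor gene of the epiblast and early neural cells, was at 9.74 CPM against 1.45 (2.75, 2.35 to 3.13), and SOX3, the closest relative of SOX2, at 3.13 against 0.792 (1.98, 1.30 to 2.62). KLF17, a gene of naive pluripotency, had 0 UMIs in all kept BMP4 cells. The 11 listed genes of naive pluripotency summed to 26.8 CPM in the selected cells, 2 of them at 0 UMIs, and 16.8 in the other BMP4 cells.

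A cluster of 110 shallow cells in the BMP4 library, with a median of 4581.5 UMIs, held GRIK2 and NAV3 among its 10 leading genes, but only 8 of its cells met the rule and 83 met it except for SOX2. It was left unnamed.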
